A study of Homo sapiens with 2 samples.

Results

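Protein-coding gene deserts were taken as all sequence of chromosomes 1 to 22 more than 100 kb from the span of any protein-coding gene in RefSeq GRCh38.p14. A peak belonged to a desert when it had no base within 100 kb of such a span, so the members were chosen by position alone and their height and content were not used. By this rule 5474 of 44994 autosomal peaks were desert peaks (12.2%, 95% Wilson interval 11.9 to 12.5), out of 47810 peaks in the whole list. The peaks came from CUT&Tag in A549, an established human lung cancer line of wild-type genotype, in which an antibody on the bead-bound cells directs a transposase to cut nearby DNA. Per the labels 1 library used S9.6, an antibody against RNA-DNA hybrids, and 1 used IgG; the IgG library was not analysed here. The S9.6 library had no replicate, so no difference was tested, and every interval covers counting error in this peak list alone. Tagging that does not depend on hybrids was not separated from S9.6 signal.

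R-loops form when a nascent RNA pairs with its template strand and leaves the other DNA strand single. They are best known at the starts and ends of transcribed genes, at GC-rich promoters, in the ribosomal DNA and at telomeres and centromeres, where non-coding RNA is made. Gene deserts as taken here hold no gene that RefSeq lists as protein-coding. They do hold long non-coding RNA (lncRNA) genes, distal regulatory elements of developmental genes and satellite repeats. In the short arms of the acrocentric chromosomes they also hold the genes for ribosomal RNA.

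The sequences below are examples of lncRNA starts with and without a desert peak, chosen after their values were seen and not as typical ones. Each runs 5′ to 3′ on the strand of the lncRNA gene, from 250 bases before its RefSeq start to 50 after, in GRCh38.p14. In the first 6 lines, whose genes had a peak within 1000 bp of the start, and in LINC02684, which had none, capitals mark CG dinucleotides. In the last, which had no peak either, capitals mark TATAAA, the TATA box sequence, or its reverse complement TTTATA.
LOC124904989 (chr21:7142275-7142574, minus strand): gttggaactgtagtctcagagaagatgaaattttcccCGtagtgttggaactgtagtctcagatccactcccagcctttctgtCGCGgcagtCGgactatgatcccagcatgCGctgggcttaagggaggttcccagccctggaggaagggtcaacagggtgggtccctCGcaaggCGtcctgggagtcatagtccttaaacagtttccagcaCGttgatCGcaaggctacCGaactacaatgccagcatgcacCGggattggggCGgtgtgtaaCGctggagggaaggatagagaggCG
LOC124905093 (chr22:25447944-25448243, minus strand): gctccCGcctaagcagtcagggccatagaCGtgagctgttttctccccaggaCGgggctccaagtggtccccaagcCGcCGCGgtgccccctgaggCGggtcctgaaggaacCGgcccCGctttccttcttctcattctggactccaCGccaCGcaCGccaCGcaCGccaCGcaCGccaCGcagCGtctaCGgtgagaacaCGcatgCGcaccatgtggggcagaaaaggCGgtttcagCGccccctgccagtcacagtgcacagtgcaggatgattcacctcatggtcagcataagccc
LINC01117 (chr2:176637504-176637803, plus strand): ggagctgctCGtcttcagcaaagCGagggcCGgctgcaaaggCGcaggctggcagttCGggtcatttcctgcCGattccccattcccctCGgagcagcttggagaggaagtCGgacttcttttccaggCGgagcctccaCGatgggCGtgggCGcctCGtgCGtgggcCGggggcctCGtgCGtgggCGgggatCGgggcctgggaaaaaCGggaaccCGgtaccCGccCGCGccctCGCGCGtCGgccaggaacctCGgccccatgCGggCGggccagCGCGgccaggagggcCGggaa
FAM27B (chr9:67726694-67726993, minus strand): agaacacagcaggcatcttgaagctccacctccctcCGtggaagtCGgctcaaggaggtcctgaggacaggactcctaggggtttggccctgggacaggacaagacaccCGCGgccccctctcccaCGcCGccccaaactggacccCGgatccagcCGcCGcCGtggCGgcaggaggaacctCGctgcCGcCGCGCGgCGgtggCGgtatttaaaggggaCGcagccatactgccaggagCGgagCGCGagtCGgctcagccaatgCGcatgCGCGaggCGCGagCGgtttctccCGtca
LINC01986 (chr3:11501-11800, plus strand): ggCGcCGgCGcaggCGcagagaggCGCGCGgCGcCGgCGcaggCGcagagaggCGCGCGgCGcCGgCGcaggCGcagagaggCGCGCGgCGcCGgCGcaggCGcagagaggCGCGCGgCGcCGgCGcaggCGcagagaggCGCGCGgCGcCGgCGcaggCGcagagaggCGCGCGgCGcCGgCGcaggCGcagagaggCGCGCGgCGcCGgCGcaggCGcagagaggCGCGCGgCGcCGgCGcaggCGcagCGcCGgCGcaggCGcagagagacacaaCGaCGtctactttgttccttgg
LOC105375052 (chr6:40715292-40715591, plus strand): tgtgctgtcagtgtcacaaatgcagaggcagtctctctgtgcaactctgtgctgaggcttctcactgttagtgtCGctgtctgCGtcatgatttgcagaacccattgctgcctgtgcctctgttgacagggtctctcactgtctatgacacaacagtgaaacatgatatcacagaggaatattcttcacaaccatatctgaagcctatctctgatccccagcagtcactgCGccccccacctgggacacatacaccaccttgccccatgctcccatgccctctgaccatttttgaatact
LINC02684 (chr11:135076148-135076447, minus strand): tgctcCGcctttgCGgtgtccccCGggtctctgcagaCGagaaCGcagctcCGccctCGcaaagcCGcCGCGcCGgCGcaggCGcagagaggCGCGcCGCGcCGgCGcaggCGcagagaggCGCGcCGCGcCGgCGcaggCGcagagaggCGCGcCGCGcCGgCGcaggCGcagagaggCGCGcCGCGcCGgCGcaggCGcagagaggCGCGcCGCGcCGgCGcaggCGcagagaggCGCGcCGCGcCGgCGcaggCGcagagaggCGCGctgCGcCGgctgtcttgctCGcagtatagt
LOC105376011 (chr9:31917885-31918184, minus strand): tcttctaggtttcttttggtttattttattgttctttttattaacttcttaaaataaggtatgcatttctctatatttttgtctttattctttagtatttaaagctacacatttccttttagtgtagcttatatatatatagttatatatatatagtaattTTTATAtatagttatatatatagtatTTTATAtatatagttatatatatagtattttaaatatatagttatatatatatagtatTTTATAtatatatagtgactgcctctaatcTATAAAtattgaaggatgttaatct
The first stands for 4 lncRNA genes of chromosome 21 with the same 300 bases. LOC124905093 and LINC01117 lie in chromosome arms far from any centromere. FAM27B lies in a segment of chromosome 9 with many duplicated copies. LINC01986 starts beside the end of the short arm of chromosome 3, and its window is a short repeat with 66 CG dinucleotides. That of LOC105375052, in an arm of chromosome 6, has 3 CG dinucleotides, and the gene shares its peak with LOC101929535 on the other strand. LINC02684, at the end of the long arm of chromosome 11, has 60 CG dinucleotides and 79.7% GC, yet no peak at its start. Its window too is mostly a short repeat, much of it the same as in LINC01986. The window of LOC105376011 has 17.3% GC and no CG dinucleotide. Desert starts without a peak had a median of 42% GC, and those with a peak 54.7%. Starts were counted as CpG-rich when their 300 bases had over 50% GC and an observed-to-expected CG ratio over 0.6. Of the 112 desert starts with a peak 79 were not CpG-rich, and 88 CpG-rich desert starts had no peak.

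Desert peaks were sparse. Deserts made up 28.5% of the autosomal sequence counted here and held 6.96 peaks per Mb (95% exact Poisson interval 6.78 to 7.15), against 20.1 per Mb in the rest, a ratio of 0.347 (0.337 to 0.357). Left out of both were 17 spans, 117.1 Mb in all and each 1 Mb or longer, that held no gene of any class and no peak; they stand in for assembly gaps. Most desert peaks were also low. The maximum coverage, the highest number of fragments stacked at any base as the authors' caller wrote it, had a median of 2. Other autosomal peaks had the same median. The maximum was 3 or more in 1779 desert peaks (32.5%, 31.3 to 33.8), beside 45.6% of all autosomal peaks. Desert peaks had a median width of 680.5 bp and a median summed signal of 936, and other autosomal peaks had 687 bp and 996.

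The median height hid a tall minority. A maximum coverage of 5 or more was reached by 330 desert peaks (6.03%, 5.43 to 6.69), beside 9.54% of all autosomal peaks. A maximum of 10 or more was reached by 111 desert peaks (2.03%, 1.69 to 2.44), beside 1.39% of all autosomal peaks. Deserts thus held 7.69% of autosomal peaks at 5 or more, 17.8% at 10 or more, 39.4% at 20 or more (54 of 137) and 53.1% at 50 or more (26 of 49, interval 39.4 to 66.3). They also held 17.1% of the summed signal of all autosomal peaks, and 11.9% when the ribosomal DNA was left out.

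The desert peaks fell into 4 kinds of place. The largest, with 3533 peaks (64.5%), lay in chromosome arms. Another 1892 (34.6%, beside 11.1% of all autosomal peaks) lay in or within 5 Mb of 1 of 26 stretches of at least 1.5 Mb with no annotated gene, which mark the centromeres, the acrocentric short arms and the large heterochromatic blocks. The ribosomal DNA of chromosome 21 held 37 peaks (0.676%), and 12 (0.219%) lay at nuclear copies of mitochondrial genes. The 37 ribosomal DNA peaks carried 34.8% of the summed signal of all desert peaks, about as much as the 3533 arm peaks with 33.5%. Peaks near gene-free stretches carried 30.5%.

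Height differed between these places. A maximum of 3 or more was found in 818 arm desert peaks (23.2%, 21.8 to 24.6), beside 45.0% of all arm peaks. It was found in 48.4% of desert peaks near gene-free stretches (46.1 to 50.6) and 36 of the 37 ribosomal DNA peaks. Outside the deserts the share was 47.1% in the arms and 50.7% near gene-free stretches. Peaks of 10 or more numbered 15 in the arms, 65 near gene-free stretches, 26 in the ribosomal DNA and 5 at mitochondrial gene copies. Within the arms alone deserts held 8.84% of all peaks, 4.55% of those at 3 or more and 1.62% of those at 5 or more (interval 1.26 to 2.08). At 10 or more the share was 3.24% (15 of 463, interval 1.97 to 5.28). A maximum of 20 or more was reached by 6 of 3533 arm desert peaks (0.170%) and 59 of 36453 other arm peaks (0.162%). Arm deserts were therefore poorer in peaks of 3, 5 or 10 or more than in peaks, but not in those of 20 or more, on 6 peaks. The deserts as a whole were richer in the highest ones.

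**Figure D1:**
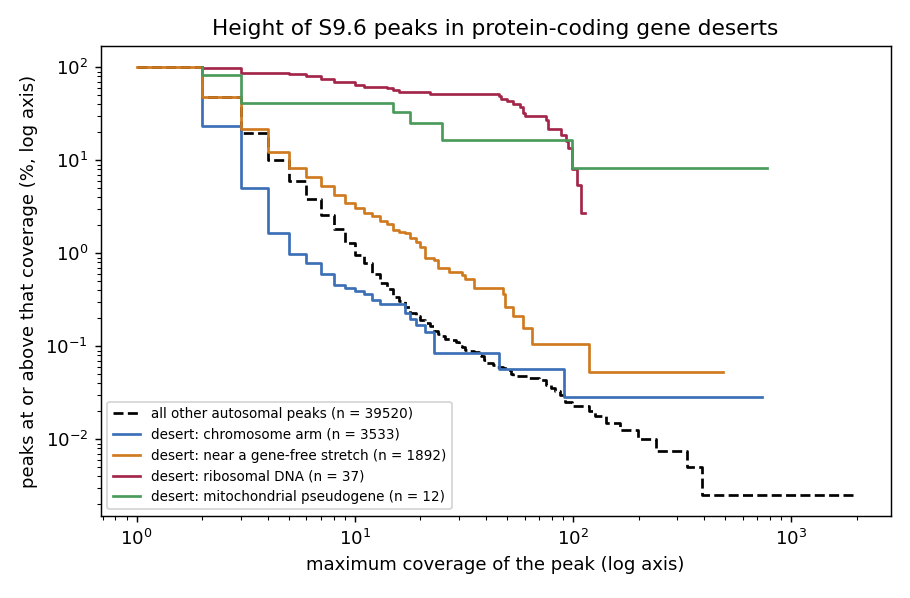
Share of peaks (y, percent, log axis) that reach a given maximum coverage or more (x, log axis), for the 4 kinds of desert peak and for all other autosomal peaks of the S9.6 library. Arm desert peaks fall below the dashed line of other peaks at 3 (23.2% against 47.4%), whereas peaks near gene-free stretches lie above it at 10 and most ribosomal DNA peaks lie beyond 10.

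The density of peaks fell with distance from protein-coding genes. In the arms it was 26.1 per Mb in the first 10 kb beyond a gene (25.4 to 26.8), 14.9 at 10 to 50 kb and 10.5 at 50 to 100 kb. Inside the deserts it went on to 8.17 per Mb at 100 to 200 kb, 5.49 at 200 to 500 kb, 2.90 at 500 to 1000 kb (2.63 to 3.19) and 1.63 beyond 1000 kb (1.31 to 2.00). Neighbouring bins did not overlap in their intervals at any of these steps. The share of peaks with a maximum of 3 or more in the arms fell from 49.5% in the first 10 kb to 26.8% at 100 to 200 kb and 9.86% at 500 to 1000 kb (7.41 to 13.0). Beyond 1000 kb it was 11.1% on only 90 peaks (6.15 to 19.3).

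Counted over all autosomal sequence, centromeres and short arms included, the same bins gave another picture. Density was 4.72 per Mb at 500 to 1000 kb and 7.48 per Mb beyond 1000 kb (6.96 to 8.02), where 43.9% of 770 peaks had a maximum of 3 or more. The 5 desert peaks farthest from a protein-coding gene, 4841 to 4995 kb away, all lay on the short arm of chromosome 22 before OR11H1, an olfactory receptor gene, and had maxima of 2 to 4.

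**Figure D2:**
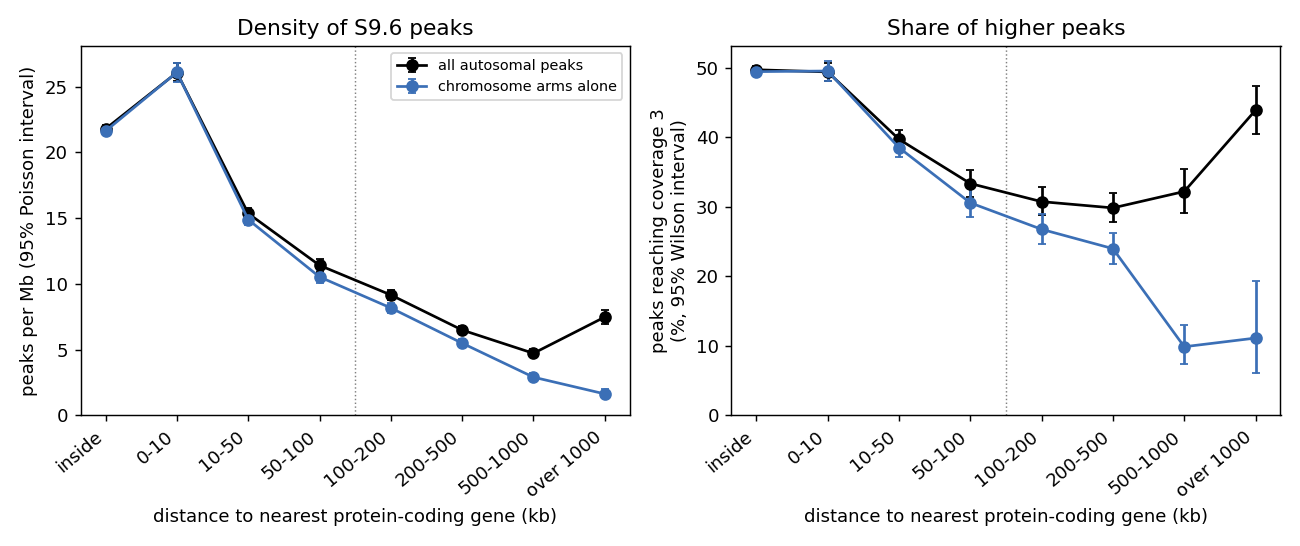
Peaks per Mb (left, 95% Poisson intervals) and percent of peaks with a maximum coverage of 3 or more (right, 95% Wilson intervals) by distance to the nearest protein-coding gene in kb, over all autosomal peaks and over chromosome arms alone; the dotted line marks 100 kb, where deserts begin. In the arms both measures fall into the deserts, to 1.63 peaks per Mb beyond 1000 kb, while over all sequence they rise again there.

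The rule has an edge at 100 kb, and peaks on either side of it looked alike. The member nearest the edge, chr2:204444921-204445466, lay 100009 bp from PARD3B and had a maximum of 2, and the peak nearest the edge outside it, chr8:56546581-56547196, lay 99940 bp from PENK and also had a maximum of 2. Between 90 and 100 kb there were 348 peaks, 31.3% of them with a maximum of 3 or more, and between 100 and 110 kb there were 282, with 27.7%.

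The ribosomal DNA held the largest desert peaks by summed signal. Each 45S gene encodes the precursor that is cut into the 18S, 5.8S and 28S RNAs of the ribosome, and RNA polymerase I transcribes it from tandem copies on the acrocentric short arms. On chromosome 21 3 copies are annotated in the sequence used here, and peaks covered nearly all of each. RNA45SN2 (chr21:8205988-8219302) was 94.6% covered by 4 peaks with maxima of 47 to 109. RNA45SN3 (chr21:8389035-8402343) was 90.6% covered by 5 peaks with maxima of 16 to 99. RNA45SN1 (chr21:8433222-8446572) was 93.8% covered by 5 peaks with maxima of 8 to 99. All 12 of the annotated 45S, 18S, 5.8S and 28S genes in these units had a peak, and the autosomal background for rRNA genes, which includes the 5S genes outside deserts, was 100%.

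Signal did not stop at the 3′ side of the 45S genes. A single peak of 33866 bp, chr21:8214529-8248394, began inside the 28S gene RNA28SN2 and ran 29.1 kb past the end of RNA45SN2 into the spacer that separates one unit from the next. Its summed signal of 987587 was the highest of all desert peaks. After RNA45SN1 a peak of 27761 bp, chr21:8444591-8472351, ran 25.8 kb past the gene, with a summed signal of 736408. After RNA45SN3 the spacer was covered by a peak of 19693 bp with a maximum of 113, chr21:8402489-8422181, and another of 9416 bp. Before the lower end of RNA45SN2 and RNA45SN3, by contrast, most peaks were short and had maxima of 3 to 14. Over the 37 ribosomal DNA peaks the mean coverage was 25.5, against 1.49 over arm desert peaks. The genome holds many more copies of this unit than are annotated, and the authors' handling of reads that match several places is not given in the sources used here; its part in these heights was not tested.

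**Figure D3:**
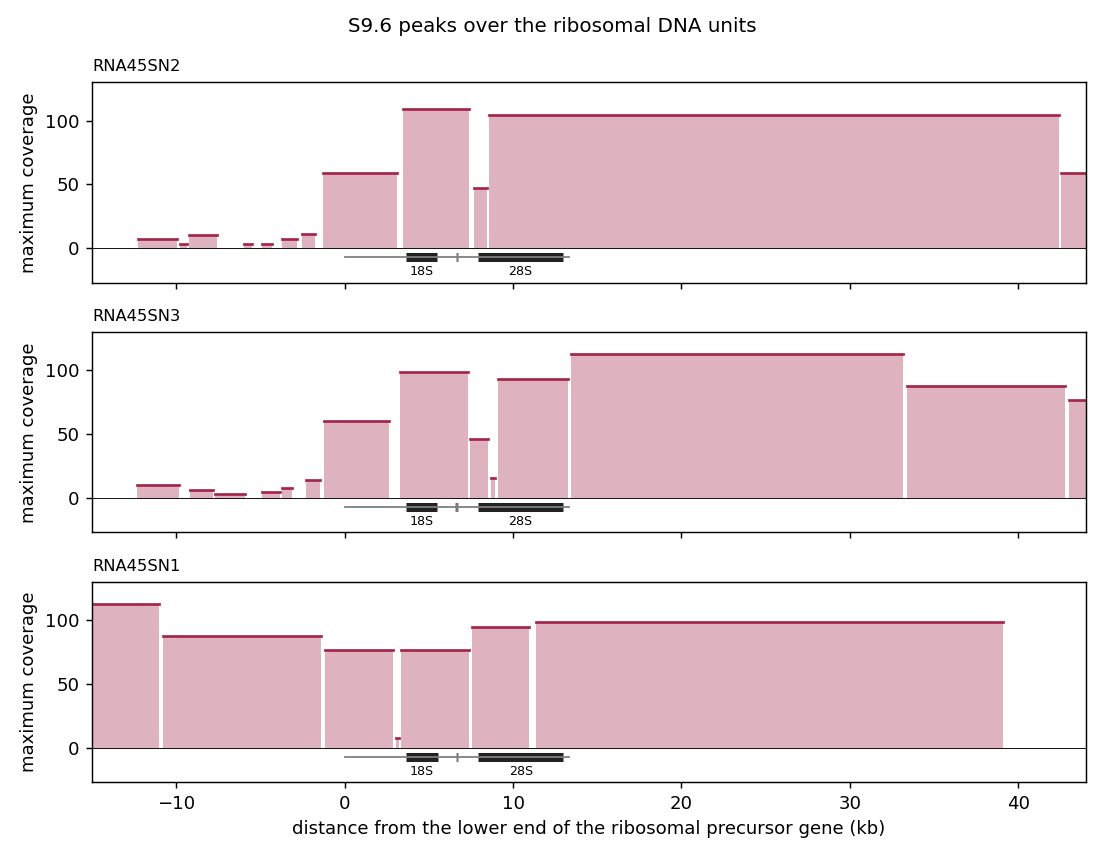
Maximum coverage of each peak (y) by distance from the lower end of the 45S gene span (x, kb) for the 3 ribosomal DNA units of chromosome 21; shaded boxes span each peak and the bars under the axis mark the 18S, 5.8S and 28S genes. Boxes reach 47 to 109 over RNA45SN2 and continue at 104 through its spacer to 29.1 kb past its end; a box is drawn at the height of its highest base, not its mean.

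MicroRNA genes placed in these units lay under the same peaks. Their mature forms are shown 5′ to 3′ with the seed, bases 2 to 8 that pair with targets, in capitals.
hsa-miR-6724-5p: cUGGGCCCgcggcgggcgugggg
hsa-miR-10396a-3p: gGCCCCGGgcccucgaccggg
hsa-miR-10396b-3p: gGCCCCGGgcccucgaccggac
hsa-miR-3648: aGCCGCGGggaucgccgaggg
The forms miR-10396a-3p and miR-10396b-3p share a seed. The peak over MIR6724-4 (chr21:8432540-8432562) had a maximum of 77 and that over MIR6724-2 (chr21:8249515-8249537) a maximum of 59. MIR10396B lay under a narrow peak of 191 bp with a maximum of 8. MIR10396A and MIR3648-2, farther along the short arm, lay under 1 peak of 946 bp with a maximum of 21. The peaks are far longer than a miRNA gene and do not single it out. Away from chromosome 21, MIR4289 and MIR4291 lay under arm peaks with a maximum of 3.

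Gene-free stretches held desert peaks on all 22 autosomes. Inside the 26 stretches themselves lay 715 desert peaks, of which 341 (47.7%, 44.1 to 51.4) had a maximum of 3 or more and 37 a maximum of 10 or more. The most lay in the stretches of chromosome 10 (86, chr10:38719383-42149318), chromosome 1 (78), chromosome 5 (75) and chromosome 19 (69). The stretch of chromosome 6 held 5, and that of chromosome 15, 19.9 Mb at the short-arm end, also held 5. Part of that length was left out of the densities as standing in for an assembly gap. All counted desert of chromosome 15 came to 17.8 Mb. Counting all desert peaks in or within 5 Mb of a stretch, chromosome 19 had 209, chromosome 20 had 193 and chromosome 22 had 165, while chromosome 6 had 11. Peaks of the ribosomal DNA and of mitochondrial gene copies are not in these counts. On chromosome 4 72.6% of these peaks had a maximum of 3 or more, on chromosome 18 10.3%.

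The tallest peak near a gene-free stretch was chr3:93470340-93470820, 402.2 kb from PROS1, the gene for the anticoagulant protein S. It was 481 bp wide with a maximum of 489. Chromosome 5 held the next, chr5:49601095-49603142, at 118, and further along came a 5572 bp peak, chr5:49656322-49661893, at 65. On chromosome 17, chr17:26603451-26604748 reached 59 and the 5498 bp peak chr17:26880450-26885947 reached 53. None of these 5 had an annotated gene within 1000 bp. Reads from satellite repeats can match many places, and that handling was not tested either.

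A few desert peaks were narrow and very tall. The highest of all, chr17:22521302-22521598, was 297 bp wide with a maximum of 775, and lay at MTCYBP13, a nuclear copy of the mitochondrial cytochrome b gene, between KCNJ18 and WSB1. Next came chr13:109424126-109424342, 217 bp wide with a maximum of 736, in an arm desert between MYO16, a myosin gene, and IRS2, an insulin signalling adaptor, with no gene of any class within 1000 bp. In the desert before CNTNAP2, a neuronal adhesion gene, chr7:145997326-145997437 reached 91 within 112 bp. MTRNR2L12, a pseudogene of the mitochondrial 16S ribosomal RNA, had a peak of 99 (chr3:96617183-96618018). Of the 12 desert peaks at mitochondrial gene copies 5 had a maximum of 10 or more and the other 7 had 2 or 3. Outside deserts 17 of 22 peaks at such copies had a maximum of 10 or more, and the highest reached 1953. Tall peaks at these copies were thus not particular to deserts. The part of reads with several matches was not tested here either. Only 20 of 151 such copies in deserts had a peak within 1000 bp (13.2%), beside 11.6% of those on all autosomes. With 1 library it could not be told whether a tall narrow peak would be found again.

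Ends of chromosomes held another share of the tall arm peaks. The upper end of a chromosome was taken as the end of its last gene or peak. In the arms 13 deserts with at least 1 peak reached a chromosome end. They held 52 peaks, of which 24 (46.2%, 33.3 to 59.5) had a maximum of 3 or more, against 22.8% of the 3481 other arm desert peaks (21.5 to 24.2). These end deserts held 6 of the 15 arm peaks of 10 or more. The telomere-side peak of the short arm of chromosome 3, chr3:9987-10874, reached 46, and that of chromosome 7, chr7:9993-10241, reached 18. On the long arm of chromosome 2, chr2:242183409-242183538 reached 23 within 130 bp. Past FRG2B on chromosome 10 lay 10 peaks within 60.6 kb, among them chr10:133753296-133754832 at 19 beside DUX4L13 and chr10:133762666-133763927 at 21. This 1 desert gave 8 of the 24 end peaks of 3 or more and 3 of the 6 of 10 or more. DUX4L13 is a copy of the DUX4 gene of the D4Z4 repeat. Desert sequence at the end of chromosome 14, the immunoglobulin heavy chain region, held 18 peaks, with a highest maximum of 3.

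Deserts differed in how many peaks they held. There were 1539 unbroken deserts with a median length of 0.218 Mb, of which 981 (63.7%) held a peak and 558 held none. The 119 deserts with 10 or more peaks held 3031 of the 5474. The 8 deserts with most peaks held 859 (15.7%), and 7 of these 8 lay across a centromere or on a short arm. Among them were the short-arm side of OR11H1 on chromosome 22 with 148 peaks, ZNF337 to LOC124904970 on chromosome 20 with 140, ZNF254 to UQCRFS1 on chromosome 19 with 137, ZNF37A to ZNF33B on chromosome 10 with 96 and LOC102723475 to LOC101927345 on chromosome 21, which contains the ribosomal DNA, with 95. LINC02798, which the table lists as protein-coding, to H3-7 on chromosome 1 held 83. Of 247 deserts of at least 1 Mb, 12 held no peak. The longest of them with annotated sequence were chr4:27125382-30616630 after STIM2, 3.49 Mb, and chr6:65807227-68535281 between EYS and ADGRB3, 2.73 Mb.

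The remaining desert of the 8 lay in an arm. It was chr8:141618730-142112079, between C8orf90 and TSNARE1, with 85 peaks in 493.4 kb, or 172.3 per Mb (137.6 to 213). Of these 56 (65.9%) had a maximum of 3 or more and the highest reached 8, and 80 had their summit between genes of any class. The 1 Mb on either side of it held 151.5 peaks per Mb. On chromosome 22, TAFA5 to BRD1 held 73 peaks, or 88.9 per Mb, against 81.5 per Mb on either side. TLE3 to UACA on chromosome 15 held 23, or 64.5 per Mb (40.9 to 96.8), against 33.0 beside it. VRK1 to BCL11B on chromosome 14, 2088 kb long, held 23, or 11.02 per Mb (6.98 to 16.5), against 25.5 beside it. Some peak-rich deserts thus lay in peak-rich surroundings, and others stood above or below theirs.

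The desert downstream of MYC, the proto-oncogene transcription factor, holds most of the lncRNA gene PVT1, which fills only the side next to MYC. Between MYC and GSDMC, chr8:127842952-129605434, lay 62 peaks, or 35.2 per Mb (27.0 to 45.1), with 30.5 per Mb on either side. PVT1 itself (chr8:127794524-128101256, 306.7 kb) covered 258.3 of the 1762 kb of this desert and overlapped 37 of the peaks, the most of any non-coding gene, and 18 of these had a maximum of 3 or more. The highest, chr8:127851440-127854732, was 3293 bp wide and reached 12, and chr8:127859466-127862148 reached 7. The other 35 reached 2 to 5 and were spread from 53.3 to 294.4 kb from the lower end of the gene. Another 3 peaks on PVT1 lay within 100 kb of MYC and are not members. The remaining 25 peaks of the desert lay outside PVT1 and reached at most 5.

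Chromosomes differed by more than their counting intervals. In arm deserts the density ran from 1.19 per Mb on chromosome 4 (0.945 to 1.48) to 43.5 on chromosome 22 (37.4 to 50.3). Chromosomes 13, 6 and 18 followed chromosome 4 with 2.08, 2.09 and 2.68 per Mb, and their intervals overlapped each other. Chromosome 2 had more desert peaks than any other, 567. The arm sequence outside deserts showed a similar order, from 6.15 per Mb on chromosome 4 to 59.0 on chromosome 22 and 67.3 on chromosome 19. The ratio of desert to other arm density was lowest on chromosome 21 (0.146), on 26 peaks, and highest on chromosome 22 (0.737). Chromosome 19 had only 0.238 Mb of arm desert, with 7 peaks.

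**Figure D4:**
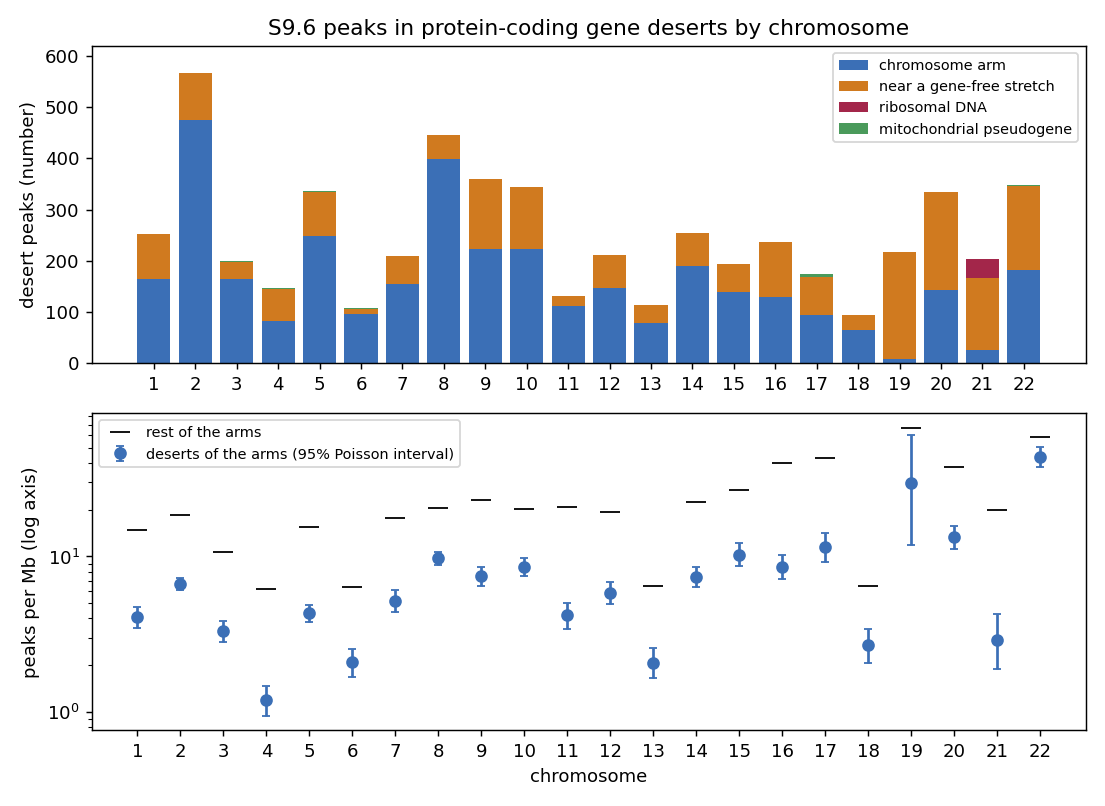
Number of desert peaks per chromosome by kind of place (top) and peaks per Mb in the chromosome arms (bottom, log axis), with points and 95% Poisson intervals for deserts and dashes for the rest of the arms. On all 22 chromosomes the desert point lies below the dash, from 1.19 per Mb on chromosome 4 to 43.5 on chromosome 22.

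Desert peaks stood farther from each other than other peaks did. Another peak lay within 10 kb of 2093 desert peaks (38.2%, 37.0 to 39.5), beside 56.9% of all autosomal peaks, and the median distance to the next peak was 18.4 kb, against 6.42 kb for peaks outside deserts. In the arms 29.2% of desert peaks had such a neighbour (27.7 to 30.7), with a median distance of 29.5 kb. Near gene-free stretches 53.9% had one (51.6 to 56.1), with a median of 8.26 kb, and in the ribosomal DNA 36 of 37. Clustered peaks are not independent counts, so the intervals given here are too narrow for them.

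Most desert peaks lay away from any annotated gene. The summit of 3788 (69.2%, 68.0 to 70.4) was neither in a gene of any class nor within 1000 bp of one, beside 26.3% of all autosomal peaks. The rule leaves out every peak in or near a protein-coding gene, so a share above that of all peaks was fixed by it. Another 1288 (23.5%, 22.4 to 24.7) overlapped the span of a lncRNA gene, beside 15.2% of all. In the arms the 2332 peaks between genes had a maximum of 3 or more in 22.3% of cases (20.7 to 24.1), and the 128 at a lncRNA start in 31.2% (23.9 to 39.7).

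Starts of lncRNA genes took a small part of the desert peaks. A base within 1000 bp of a lncRNA start, or of either end where the strand was not known, was found for 200 desert peaks (3.65%, 3.19 to 4.18), beside 6.92% of all autosomal peaks. Seen from the genes, 112 of the 2332 desert lncRNA genes with a known start had a peak there (4.80%, 4.01 to 5.75), beside 18.0% of all 11145 and 21.5% of those within 100 kb of a protein-coding gene (20.7 to 22.4). It was 23.5% for lncRNA genes that overlap a protein-coding gene. Among the others the share fell from 31.6% at 0 to 10 kb to 10.4% at 10 to 100 kb. In deserts it went on to 6.0% at 100 to 200 kb, 4.54% at 200 to 500 kb and 3.21% beyond 500 kb (2.02 to 5.09). The intervals of these last 3 classes overlapped each other. A start peak with a maximum of 3 or more was found at 52 desert lncRNA genes (2.23%), beside 13.2% of all. Of the desert genes with a start peak of 5 or more, only LINC01986 and LOC124905093 lay in chromosome arms. The others lay near gene-free stretches or in the ribosomal DNA.

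The sequence at the start went with the presence of a peak. CpG-rich windows made up 46.9% of all 33725 RefSeq promoter windows, which are not of lncRNA genes alone, and 5.19% of the desert lncRNA windows. Among lncRNA genes outside deserts 2576 of 8813 windows were CpG-rich. Of 121 CpG-rich desert starts 33 had a peak (27.3%, 20.1 to 35.8), against 79 of 2211 others (3.57%, 2.88 to 4.43). Among lncRNA genes outside deserts the shares were 45.7% and 11.5%. Across GC classes the desert share was 1.02% under 40% GC, 2.76% at 40 to 50%, 10.5% at 50 to 60% and 26.0% at 60% or more (19.7 to 33.4). In the same classes outside deserts it was 2.96%, 6.65%, 20.7% and 43.4%, so within each class the desert share was the lower, with intervals that did not overlap. Some genes share a peak or a start sequence and are not independent counts, so these intervals are too narrow. Of the 8813 starts outside deserts 4345 were of genes that overlap a protein-coding gene and 1925 of genes within 10 kb of one. A peak there may also lie at a protein-coding start, and its part in the difference was not tested. The letters TATAAA, on either strand, were in 25.3% of desert lncRNA windows and 11.6% of all windows. They were in 14.3% of desert windows with a peak and 25.9% of those without. For lncRNA windows outside deserts these shares were 4.91% and 14.7%. A match is a description of the sequence only.

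**Figure D5:**
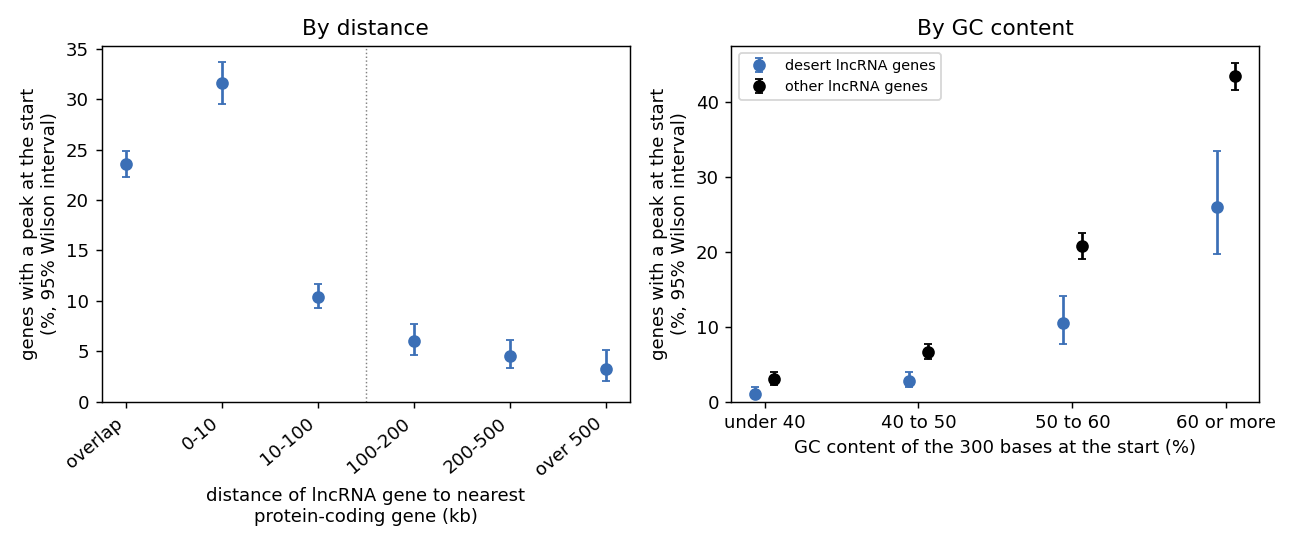
Percent of lncRNA genes with a peak within 1000 bp of the start (95% Wilson intervals), by distance of the gene to the nearest protein-coding gene (left, deserts right of the dotted line) and by GC content of the 300 bases at the start (right) for desert and other lncRNA genes. The share falls to 3.21% beyond 500 kb and rises with GC to 26.0% in deserts and 43.4% elsewhere.

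Summits were spread around the starts rather than set at 1 point. Of the 112 genes 53 had the summit before the start and 59 after it, 25 (22.3%) had it within 200 bp and 62 (55.4%) within 500 bp, with a median of 40 bp after the start. At the 52 starts with a maximum of 3 or more 71.2% were within 500 bp, and at the 33 CpG-rich starts 78.8%.

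The genes whose windows are printed above had these values. The 4 lncRNA genes of chromosome 21 with identical windows, LOC124904989, LOC124904990, LOC124904991 and LOC124904992, had start peaks with maxima of 21, 19, 15 and 21. Because the windows are identical, reads cannot be assigned to 1 of them by these bases, and the 4 values are not independent. LOC124905093, 116.7 kb from GRK3, had a peak with a maximum of 5 whose summit lay at -219 bp from the start. LINC01117 and LINC01116 start head to head 273.4 kb or more from MTX2 and shared the peak chr2:176637676-176638770, with a maximum of 3. FAM27B had a start peak of 4 and a second peak, chr9:67723449-67724692, of 17 just beyond its other end. The peak of 46 assigned to LINC01986 had its summit at -1280 bp from the start, in the telomere-side repeat and not under the printed bases. FAM27E4 on chromosome 9 had 32, its summit 109 bp after the start. LINC00662 and LINC02987 on chromosome 19, which start head to head more than 1 Mb from a protein-coding gene, shared a peak of 10 (chr19:27793078-27794476).

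Some lncRNA genes of cancer studies held desert peaks. Among 47 listed lncRNA genes that were found, 15 had a desert peak in or within 1000 bp of their span (31.9%, 20.4 to 46.2), beside 4.96% of all autosomal lncRNA genes. Their median span was 26.0 kb, against 9.12 kb for all, and the part of span length in this was not tested. Of the 14 whose whole span lay in a desert 7 had one (50%, 26.8 to 73.2), beside 17.4% of all 3749 such genes, and 1, LINC01116, had it at the start. Here the median spans were 10.9 and 13.9 kb, and the part of span length was not tested either. Of the 14, CCAT1, CASC19, PCAT1, PCAT2 and PRNCR1 lie close together on chromosome 8 and are not independent counts, so the interval is too narrow. After PVT1 with 37 came LINC-PINT with 8, CYTOR and MIR4435-2HG with 6 each and LINC00673 with 5, with highest maxima of 3, 3, 4 and 5. CCAT1, named for colon cancer and located before MYC, had 3 peaks with a highest maximum of 4, and MIR100HG had 3 with a highest of 2. MIR99AHG had 2 peaks, and CASC15, CASC9, LINC01116, LINC01139, MIR205HG, SCHLAP1 and SOX2-OT had 1 each, none above 3. PCAT1, PCAT2, PRNCR1, CASC19, LINC00460, LINC01194 and LINC01614 lay in deserts without a peak.

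Other genes with many desert peaks that RefSeq does not list as protein-coding ranged from long immune receptor loci to a short pseudogene. The receptor loci have the class other in RefSeq, so the rule did not count them as protein-coding. The immunoglobulin kappa locus IGK overlapped 22, of which 9 had a maximum of 3 or more and the highest reached 15, and the heavy chain locus IGH overlapped 18. The T cell receptor alpha locus TRA overlapped 12. Per 100 kb these came to 1.60, 1.39 and 1.29 peaks, against 12.1 for PVT1. MIR3667HG on chromosome 22 overlapped 17 (6.996 per 100 kb), LINC02885 13 (5.39 per 100 kb), the transcribed pseudogene LOC100420587 on chromosome 19 13 and the transcribed pseudogene TEKT4P2 on chromosome 21 12 within 61.4 kb (19.5 per 100 kb).

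Among small RNA genes, tRNA and snRNA genes in deserts carried peaks less often than their classes as a whole. Transfer RNA genes are units of RNA polymerase III, and of 58 in deserts 6 had a peak within 1000 bp (10.3%, 4.83 to 20.8), beside 45.2% of all autosomal tRNA genes. Of 14 desert snRNA genes, which encode spliceosome RNAs, 1 had a peak (7.14%, 1.27 to 31.5), beside 39.7%. For miRNA genes the shares were 20 of 153 (13.1%, 8.62 to 19.3) beside 19.1%, and for snoRNA genes 9 of 140 (6.43%, 3.42 to 11.8) beside 10.1%, in both cases with an interval that held the share of the whole class. Pseudogenes in deserts were close to their classes: transcribed pseudogenes had a peak in 49 of 133 cases in deserts (36.8%, 29.1 to 45.3) beside 37.3% of all, and other pseudogenes in 160 of 2523 (6.34%, 5.46 to 7.36) beside 6.38%.

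Deserts beside transcription factor genes held more peaks per Mb than those beside adhesion and neuronal genes. In the arms each base of desert was given to its nearest protein-coding gene. The 78 listed transcription factor genes with any desert had 266 peaks in 34.1 Mb, or 7.81 per Mb (6.90 to 8.81), and 27.4% had a maximum of 3 or more. The 95 listed adhesion and neuronal genes had 208 peaks in 96.2 Mb, or 2.16 per Mb (1.88 to 2.48), and 11.5% had a maximum of 3 or more (7.88 to 16.6). All arm deserts together had 5.35 per Mb and 23.2%. MYC alone had 52 of the 266, and without it the first list had 6.46 per Mb (5.63 to 7.39) and 23.8%. Deserts of the second list were also longer per gene, and the part of distance in this difference was not tested. Other genes of the first list with many peaks were ID2, an inhibitor of differentiation factors, with 18, BCL11B, a T cell and neuronal factor, with 14, MSX2 with 11, and FOXF1, a lung mesenchyme factor, with 10 in 0.194 Mb. SOX9 had 8 in 1.03 Mb and SOX2 3 in 0.701 Mb. In the other list the most were 9, for CTNNA2, an alpha catenin of neurons, in 1.79 Mb and LRFN5 in 2.19 Mb. PCDH18, a protocadherin gene, and ADGRL2 had none in 1.77 and 1.71 Mb.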

How the data were processed

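R-loop CUT&Tag was done in A549 cells with 1 S9.6 and 1 IgG library; the IgG library was not analysed here. The deposited peak list gives, for each peak, a signal summed over its bases and its maximum coverage, whole numbers with no visible scaling, which the authors' peak caller wrote; in all 47810 peaks the sum was at most width times maximum. Per the submitters' processing notes the build was GRCh38 and the tools, listed without roles, were SEACR 1.3, deepTools 3.5.2, bedtools 2.30.0, SAMtools 1.9, Bowtie2 2.4.2 and fastp 0.23.2. How duplicates and reads with several matches were handled, which threshold was set and whether IgG served as control is not given in the sources used here. Sequencing depth is unknown.

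Gene spans were those of RefSeq on GRCh38.p14. The table places 676 of 56756 autosomal genes, 153 of them protein-coding, on unlocalised, alternate or patch sequences under a chromosome's name; these were left out, leaving 18973 protein-coding and 17525 lncRNA genes. Strand and start sequence were known for 11145 lncRNA genes. Distances were taken between peak and gene ends, the summit was the middle of the maximum region, and territory near a gene was counted on a grid of 1000 bp. Peaks within 50 kb of a 45S, 18S, 5.8S or 28S gene of chromosome 21 were counted as ribosomal DNA, and those within 1000 bp of a mitochondrial pseudogene as nuclear mitochondrial copies; the rest were split by a distance of 5 Mb from gene-free stretches. Shares carry 95% Wilson intervals, densities exact Poisson intervals and density ratios exact Clopper-Pearson limits, for counting error only. With 1 library no test was made. The scripts (Python 3.11.15, pandas 2.3.3, SciPy 1.17.1) were tested on simulated peaks and genes.

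The members, gene lists and named items were chosen with earlier results of these data known. Named were the 15 highest desert peaks, the 5 with most signal and the 5 farthest from a gene. Also named were the 8 deserts with most peaks, the 8 genes not listed as protein-coding with most peaks, and listed lncRNA genes with a desert peak. Other names were chosen after their values were seen. Some items that these rules name are not reported here.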

Additional observations from a re-analysis of the deposited data

How the results depend on the processing

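No paired analysis was possible because there was 1 library. Each result was recomputed under 16 alternatives where they applied, 12 planned and 4 chosen after seeing the data. Of 61 values 28 stayed within the 95% interval of the reported one and 33 moved beyond it; the density ratio stayed below 1 throughout.

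The distance rule set the size of the set: with 50, 200 and 500 kb desert peaks were 17.2%, 7.73% and 3.54% of autosomal peaks. Their density ratio was 0.374, 0.323 and 0.328, the share at a lncRNA start 4.41%, 2.96% and 1.76%, and the share between genes 66.8%, 72.4% and 82.2%. At 500 kb 37.9% had a maximum of 3 or more. With named protein-coding genes alone the values were 12.9% of peaks, a ratio of 0.362 and 67.6% between genes. Among peaks of maximum coverage 3 or more they were 8.68%, a ratio of 0.238 and 5.12% at a lncRNA start. In the upper part of peaks by total signal, those at or above the median, they were 10.2%, 0.286, 4.86% and, for a maximum of 3 or more, 54.9%. A lncRNA window of 500 bp gave 2.5% and one of 2000 bp 5.68%; requiring the summit in the window gave 2.90%. The share between genes was 70.4% with 500 bp and 66.8% with 2000 bp.

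Of the alternatives chosen after seeing the data, chromosome arms alone gave 8.84% of peaks, a ratio of 0.270, 23.2% with a maximum of 3 or more and 65.9% between genes. Both ends of every lncRNA gene gave 4.84%. Taking the gene table as given (5464 desert peaks) or leaving out the ribosomal DNA moved none of the 5 results beyond its interval, and neither did adding chromosome X or leaving out chromosome 2. A peak of maximum 2 rests on few fragments, and sequence without a peak may hold signal under the authors' threshold.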
